A study of Mus musculus with 6 samples.

Results

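Tcf7, Lef1, Tle1, Tle2, Tle3, Tle4, Tle5, Ctnnb1, Axin2 and Satb1 were taken as 10 genes of the TCF/LEF and Groucho machinery, out of 21896 protein-coding genes in the annotation. Their sites were the rows that the authors' deposited table of UTX binding assigns to these symbols, which gave 21 sites of the 6739 listed. UTX binding had been profiled by CUT&Tag, in which an antibody directs a transposase to the chromatin around a bound protein, in Ly108+CXCR6- CD8 T cells sorted from pancreatic lymph nodes. The 3 WT samples came from NOD.NY8.3 mice, and the 3 UTX-deficient samples from UTXTCD.NY8.3 mice, in which UTX was deleted in T cells. All 6 samples therefore carried the NY8.3 T cell receptor transgene on the NOD background. The Cre driver, ages and mice per sample were not given in the sources used here.

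TCF-1 (encoded by Tcf7) and LEF-1 are HMG-box DNA-binding proteins that T cells need for their development, and TCF-1 marks CD8 T cells with progenitor properties. Without β-catenin they recruit Groucho (TLE) corepressors, and with β-catenin, the effector of canonical Wnt signalling, they can activate transcription. UTX, encoded by Kdm6a, is a histone H3 lysine 27 demethylase that is also part of complexes with the H3K4 methyltransferases MLL3 and MLL4.

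At 4 genes, the site covered bases just upstream of a transcription start listed by RefSeq, and these stretches are shown because they are the promoter DNA that lay under a UTX site. They are on the strand of the gene, 5′ to 3′, in build GRCm38.p6, the assembly of mm10, with CpG dinucleotides in capitals.
Tle1, chr4:72200894-72201143, minus strand: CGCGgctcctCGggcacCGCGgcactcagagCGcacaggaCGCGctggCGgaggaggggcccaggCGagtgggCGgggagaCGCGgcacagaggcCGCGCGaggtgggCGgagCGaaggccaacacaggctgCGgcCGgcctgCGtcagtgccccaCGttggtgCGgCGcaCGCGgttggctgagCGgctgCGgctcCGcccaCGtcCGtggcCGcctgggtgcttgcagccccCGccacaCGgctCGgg
Tle3, chr9:61372177-61372365, plus strand: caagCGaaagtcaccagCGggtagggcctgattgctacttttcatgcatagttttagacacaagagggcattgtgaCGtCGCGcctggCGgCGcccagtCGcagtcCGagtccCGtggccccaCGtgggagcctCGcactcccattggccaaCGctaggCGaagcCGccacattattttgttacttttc
Tle4, chr19:14598184-14598433, minus strand: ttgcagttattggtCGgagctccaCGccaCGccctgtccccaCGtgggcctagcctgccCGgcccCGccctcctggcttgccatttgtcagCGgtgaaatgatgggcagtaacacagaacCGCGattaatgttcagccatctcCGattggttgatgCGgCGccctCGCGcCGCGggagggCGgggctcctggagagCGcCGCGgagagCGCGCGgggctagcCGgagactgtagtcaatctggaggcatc
Satb1, chr17:51833291-51833459, minus strand: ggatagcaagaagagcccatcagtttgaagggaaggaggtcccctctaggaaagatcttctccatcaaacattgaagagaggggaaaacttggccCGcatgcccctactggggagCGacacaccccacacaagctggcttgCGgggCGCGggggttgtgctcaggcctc
The Tle1 stretch of 250 bases held 35 CpG and the Tle4 stretch of the same length held 24. In the 189 bases at Tle3 there were 15 CpG, and in the 169 bases at Satb1 there were 5. In the whole 250 bases before the start, the counts were 35, 17, 24 and 5 for Tle1, Tle3, Tle4 and Satb1. The median over all 32851 listed windows of that length was 6 CpG, and it was 20 over the 4113 windows with bases under a listed site. These Tle1 and Tle4 windows were thus above the median of windows under a site, and those of Tle3 and Satb1 below it. Satb1 has 5 listed starts, and this holds for the outermost alone. The window before another of them, chr17:51832648-51832897, had 41 CpG and no bases under the site.

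The promoter windows of these genes, each the 250 bases before a listed start, were searched for short motifs on both strands. RefSeq listed 19 windows for 9 of the 10 genes, and none for Tle5, and some of the windows overlap. Of the 19 windows, 4 had bases under a site of their gene. The TCF/LEF letters CTTTGAT and CTTTGAA, which cannot match at the same place, were in none of the 19 windows. They were in 3.21% and 4.46% of all windows and in 2.09% and 2.24% of those under a site. The Runx letters TGTGGT were likewise in none, against 14.05% of all windows and 9.92% of those under a site. The ETS letters CCGGAAG were in 1 window, at Tcf7, with the match 25 bases before the start, against 6.91% of all windows and 16.2% of those under a site. No listed site lay on that Tcf7 window.

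The authors' deposited table gives means per group and over all samples, and no value per library, on a log2 scale of normalized reads, and lists only sites with a false discovery rate (FDR) under 0.05. The group values have a floor of 0 on that scale, at which the UTX-deficient value stood at 5 of the 21 sites (both Axin2 sites, Tle5, Satb1 and the farthest upstream Lef1 site). Whole reads per library were recovered from the group values and, at the floor, from the table's mean over all 6 samples less the WT sum, and normalized reads are those reads divided by the relative depth of the library, for which the mean of the 6 libraries is 1. The WT libraries had relative depths of 1.28, 0.916 and 0.792, against 1.93, 1.07 and 0.00577 for the UTX-deficient ones, so 1 UTX-deficient library was nearly empty. Libraries are numbered by depth within their group because the recovery gives no replicate number. The nearly empty library had no read at any of the 21 sites, and each fit below was also made without it. The group values count it as 0, and their floor is 1 normalized read. Without it the UTX-deficient mean was above that at the farthest Lef1 site (1.45), the upstream Axin2 site (1.29) and Tle5 (1.19). It was below at the other Axin2 site (0.983) and Satb1 (0.725), so the floor was not an absence of reads. At the listed sites together, the WT libraries held from 200277 to 348027 reads and the UTX-deficient ones from 212 to 27005; total reads per library are not in the table. Of the 8293 tests behind the table, 6718 sites were lower in UTX-deficient cells, or 81.0%, and 21 were higher. The nearly empty library had no read at any lower site, so its 212 reads all lay at the higher ones. In limma, 18 sites were higher with all 6 libraries and 5 without the nearly empty one. At Kdm6a itself, the listed site had 65, 48 and 35 WT reads against 8, 12 and 0. The table holds no RNA, so the sorted cell type could be checked only by binding. Of 8 T cell identity genes, 7 had a lower site (87.5%), against 22.1% of all protein-coding genes. These included Cd3d, Cd247 and Cd8b1 but also Cxcr6, although the cells were sorted as CXCR6-. Of 22 markers of other cell types 2 had one (9.09%), Cd4 and Pecam1. In sorted populations, fewer cells bound at a site and less binding per cell cannot be told apart. The protein profiled was itself the one deleted in the UTX-deficient samples, so a drop at a site is not a result particular to these genes.

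Sites were listed at 8 of the 10 genes, while 22.1% of all protein-coding genes had a lower site. The authors' deposited table lists 7 sites at Lef1, 4 at Tcf7, 3 at Tle4, 2 each at Tle3 and Axin2, and 1 each at Tle1, Tle5 and Satb1. Tle2 and Ctnnb1 had no listed site, which does not show that UTX was absent there, since 1554 tested sites are outside the table. All 21 sites were lower in UTX-deficient cells, and 5 of the 8 genes had more than 1 site, against 888 of 4836 genes with a site, or 18.4%. Only 7 protein-coding genes, Lef1 included, had at least 7 sites.

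Most of the sites lay in the upper part of the table by WT signal. Mean WT signal was 43.1 normalized reads at the median of the 21 sites and 30.7 at the median of all 6718 lower sites, and 16 of the 21 lay above the latter. Tcf7, Lef1 and Tle4 together held 76.3% of the WT signal of these genes. By WT signal summed over a gene's sites, Tcf7 ranked 17, Tle4 31 and Lef1 32 of the 4836 genes with a site. The sums were 353 ± 53.7 normalized reads for Tcf7, 299 ± 24.8 for Tle4 and 299 ± 21.5 for Lef1 (SD, n = 3). Within each of the 3 WT libraries Tcf7 was above both other genes, while the order of Tle4 and Lef1 changed between libraries. Tle5 (88.2 ± 20.2) and Axin2 (84.8 ± 7.002) came next, and their order also changed between WT libraries. Tle3 (62.9 ± 4.01), Tle1 (42.7 ± 5.22) and Satb1 (16.3 ± 5.47) followed, and Satb1 ranked 4579. A sum over sites rises with the number of sites listed, from 1 to 7 here. The sums also rest on the authors' assignment of sites to genes. The strongest Tcf7 site, with a WT mean of 177 normalized reads, lay outside Tcf7 and overlapped the lncRNA gene Gm30217.

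In UTX-deficient cells the signal was lower at each site in both deeper libraries. The 21 sites together had 1585, 1249 and 899 reads in the WT libraries and 98, 142 and 0 in the UTX-deficient ones. At all 21 sites each WT library lay above each UTX-deficient library, which was also so at 99.7% of all sites with recovered reads. The nearly empty library adds nothing to this, since 1 of its reads is worth 173.2 normalized reads, and the separation rests on the 2 deeper ones. In the authors' deposited table the median log2 fold was -3.56 over the 21 sites, beside -3.51 over all lower sites. With limma across all recovered sites and Benjamini-Hochberg adjustment, all 21 were lower both with the 6 libraries and without the nearly empty one. The share of all sites called was 99.7% in both fits. Every listed site had already been called between these same samples, so these limma calls were nearly fixed in advance. They add no independent support, and the adjusted p-values given for single sites cover the listed sites only. Log2 differences ranged from -5.75 to -3.10 with all 6 libraries and from -5.40 to -2.50 without the nearly empty one. The size of the loss at these genes was therefore near that of the table as a whole.

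**Figure D1:**
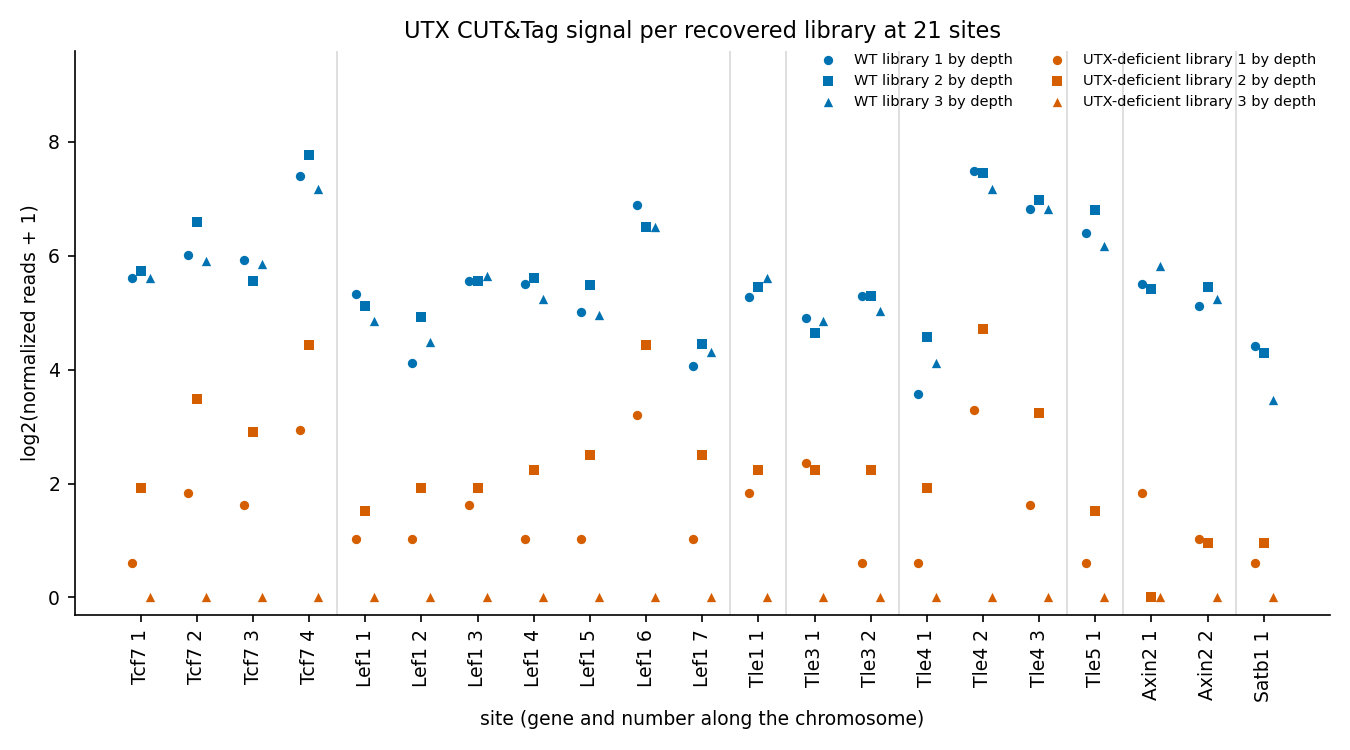
Signal at the 21 sites in each recovered library, as log2(normalized reads + 1), with sites numbered along the chromosome within each gene, 3 WT libraries in blue and 3 UTX-deficient libraries in orange. Every WT point lies above every UTX-deficient point of the same site, and the third UTX-deficient library is at 0 throughout.

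Tcf7, the gene of TCF-1, lay at chr11:52246527-52283383 on the minus strand and had sites on both sides of its start. The site with most signal, at chr11:52313907-52314307, was 31093 bases upstream of the outermost listed start and overlapped the lncRNA gene Gm30217. It had 216, 200 and 114 reads in the WT libraries and 13, 22 and 0 in the UTX-deficient ones. No WT library came near the UTX-deficient ones there, and mean WT signal was 177 ± 37.9 normalized reads (SD, n = 3), at the 99.0 percentile of lower sites. In the authors' deposited table its log2 fold was -3.56 (FDR 5.45e-09). In limma the difference was -5.00 ± 1.43 (SE, adjusted p = 0.000469) with all 6 libraries and -3.77 ± 0.74 (adjusted p = 0.000112) without the nearly empty one.

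A further Tcf7 site upstream, at chr11:52299632-52300032 and 16818 bases from the start, had 76, 42 and 45 WT reads against 4, 7 and 0. Gm30217 had an end 7652 bases from it, nearer than that of Tcf7 at 16449 bases. Inside Tcf7, chr11:52275421-52275821 lay 6974 bases past the nearest listed start and had 81, 88 and 47 WT reads against 5, 11 and 0. The other internal site, chr11:52268482-52268882, lay 13913 bases past it and had 61, 48 and 38 WT reads against 1, 3 and 0. All 3 sites were well separated between genotypes and had from 49.4 to 72.9 normalized reads in WT. The far upstream site carried 2.27 to 4.76 times the reads of each of them within any WT library. The authors' deposited table gives them log2 folds of -3.64, -3.43 and -4.58 in the same order. No Tcf7 site lay within 1 kb of a listed start.

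Lef1, encoding the second TCF/LEF factor of T cells, lay at chr3:131110297-131224357 on the plus strand, and its 7 sites spanned 244015 bases. The strongest, chr3:131157343-131157743, lay inside the gene, 1249 bases past an internal listed start. It had 151, 82 and 71 WT reads against 16, 22 and 0, with a WT mean of 99.1 ± 16.5 normalized reads (SD, n = 3). It stood at the 94.2 percentile of WT signal and exceeded each other Lef1 site 1.82 to 7.55 times within any WT library. In the authors' deposited table its log2 fold was -2.74 (FDR 4.22e-08), smaller in size than the median of the table. In limma it was -4.09 ± 1.28 (SE, adjusted p = 0.00138) with all 6 libraries and -2.81 ± 0.69 (adjusted p = 0.00081) without the nearly empty one.

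Of the other Lef1 sites, 4 lay upstream of the gene, between 52848 and 162918 bases from its outermost start. The site farthest away, chr3:130947179-130947579, had 50, 31 and 22 WT reads against 2, 2 and 0. A pair 5035 bases apart, starting at 131014415 and 131019450, had 21, 27 and 17 WT reads against 2, 3 and 0, and 59, 42 and 39 against 4, 3 and 0. The fourth upstream site, chr3:131057249-131057649, had 57, 44 and 29 WT reads against 2, 4 and 0. WT means at these 4 ran from 22.5 to 47.1 normalized reads, and log2 folds in the authors' deposited table from -3.98 to -2.91. No other protein-coding gene had an end nearer to them than Lef1, although lncRNA genes and pseudogenes did.

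Inside Lef1, chr3:131112021-131112421 lay 1924 bases past the outermost start and 570 before an internal one, with 40, 40 and 24 WT reads against 2, 5 and 0. The last site, chr3:131190793-131191193, lay 34699 bases past an internal start and had 20, 19 and 15 WT reads against 2, 5 and 0. The log2 fold that the authors' deposited table gives it, -2.08 (FDR 0.0322), was the smallest in size among the 21. Here too the WT libraries all stayed above the UTX-deficient ones.

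**Figure D2:**
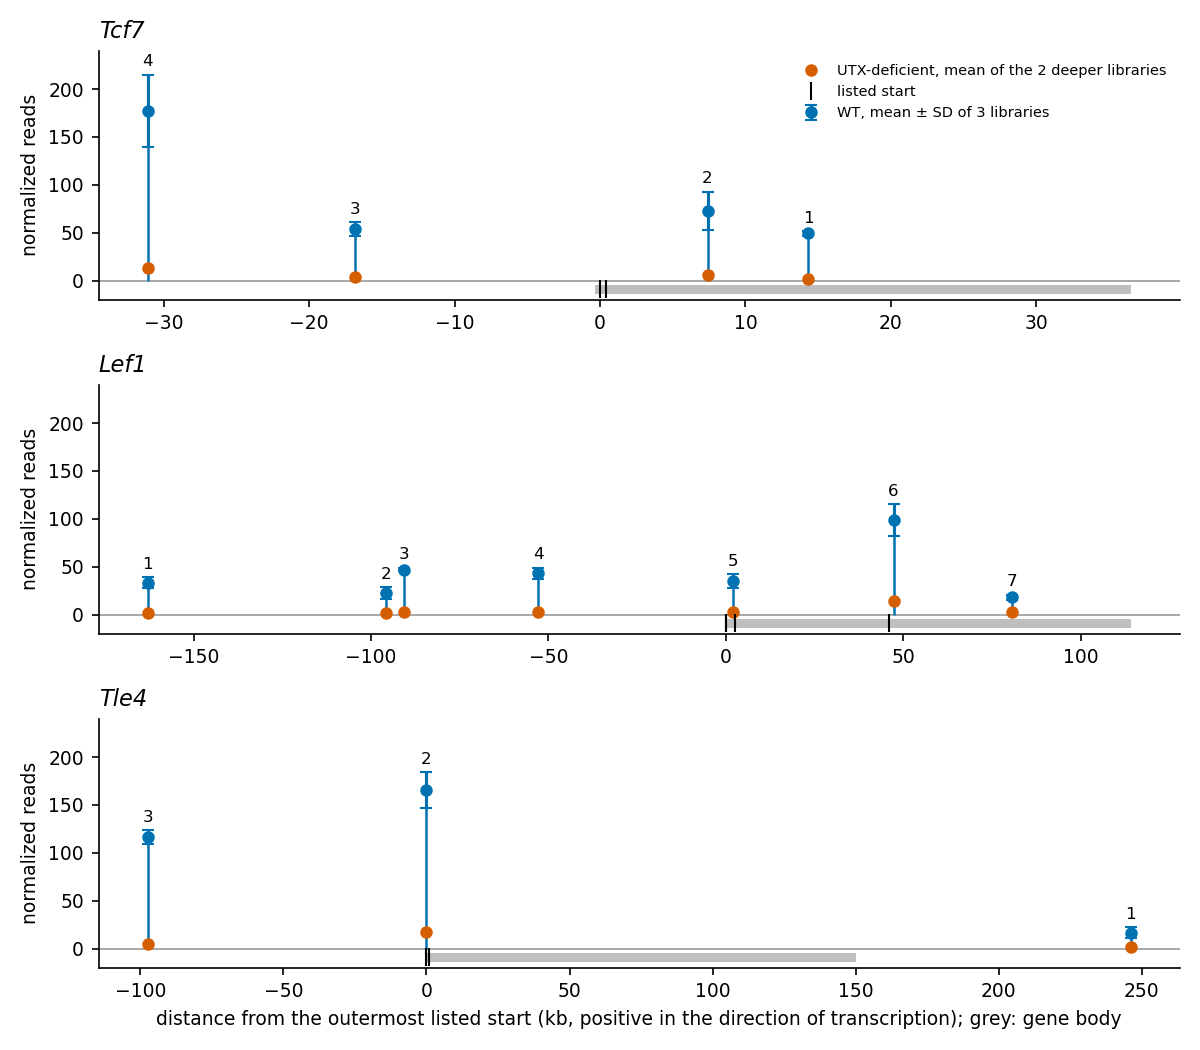
Position of each site at Tcf7, Lef1 and Tle4 in kb from the outermost listed start, positive in the direction of transcription, against normalized reads (WT mean ± SD of 3 libraries in blue, mean of the 2 deeper UTX-deficient libraries in orange). Grey bars are gene bodies and black ticks listed starts. The highest Tcf7 site lies about 31 kb upstream, and the highest Tle4 site at a start.

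Among the Wnt pathway genes of the set, Ctnnb1, which encodes β-catenin, had no listed site. The listed sites nearest to it were 3 assigned to 1700020M21Rik, the closest 137189 bases from the gene. Axin2, a scaffold of the β-catenin destruction complex and a classical Wnt target, had 2 sites. The site at chr11:108920367-108920767 lay 218 bases past the listed start and had 43, 39 and 29 WT reads against 2, 1 and 0. The site at chr11:108910866-108911266 was 9283 bases upstream, overlapped the lncRNA gene Gm46298 and had 57, 38 and 44 WT reads against 5, 0 and 0. Both sites were clearly separated by genotype, with 37.6 ± 4.55 and 47.2 ± 7.39 normalized reads in WT (SD, n = 3). Their log2 folds in the authors' deposited table were -4.40 and -4.32. With 3 reads left in all UTX-deficient libraries at the promoter-proximal site, the ratio per depth was 37.3 (exact 95% interval 12.4 to 184, counting error only).

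The Groucho genes, which encode corepressors without DNA-binding domains of their own, ranged from no site to 3. Tle4 was the strongest. Its site at chr19:14598067-14598467 covered the start, with 228, 160 and 114 WT reads against 17, 27 and 0 and a WT mean of 166 ± 18.9 (SD, n = 3). A site at chr19:14695379-14695779, 97396 bases upstream, had 144, 114 and 89 WT reads against 4, 9 and 0 and a WT mean of 116 ± 6.90 (SD, n = 3). The start site exceeded it 1.28 to 1.58 times within any WT library. By the authors' deposited table the upstream site had the larger log2 fold in size, -4.52 (FDR 5.35e-24), against -3.19 (FDR 3.7e-08) at the start, and the difference between sites was not tested. In limma the start site differed by -4.71 ± 1.46 (SE, adjusted p = 0.00122) with all 6 libraries and by -3.37 ± 0.74 (adjusted p = 0.000325) without the nearly empty one. The third Tle4 site, chr19:14351892-14352292, lay 95980 bases beyond the far end of the gene and was weak, with 14, 21 and 13 WT reads against 1, 3 and 0 (FDR 0.0429 in the authors' deposited table). The lncRNA gene Gm8630 had an end nearer to that site, at 45395 bases.

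Tle1 had its site at the promoter, chr4:72200853-72201253, with 48, 39 and 38 WT reads against 5, 4 and 0. Its log2 fold by the authors' deposited table was -3.54. The site also overlapped the lncRNA gene C630043F03Rik. Tle3 had a site at its start, chr9:61372177-61372577, with 49, 35 and 25 WT reads against 1, 4 and 0. A second Tle3 site, chr9:61370439-61370839, lay 1727 bases upstream, overlapped the lncRNA gene Gm34157 and had 37, 22 and 22 WT reads against 8, 4 and 0. For these neighbouring Tle3 sites the authors' deposited table gives log2 folds of -3.83 and -2.49. At the second, both deeper UTX-deficient libraries kept more of the WT mean (15.4% and 13.9%) than at most of the other sites.

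Tle5 encodes a short Groucho protein that lacks the WD40 repeats of the longer ones. Its site at chr10:81561012-81561412 lay within the gene, 1768 bases from an end, and had 107, 101 and 56 WT reads against 1, 2 and 0. WT signal was 88.2 ± 20.2 normalized reads (SD, n = 3), and the log2 fold in the authors' deposited table, -5.59 (FDR 4.91e-16), was at the 0.171 percentile of the lower sites. The 3 UTX-deficient reads left give a ratio per depth of 88.8 (exact 95% interval 30.05 to 433, counting error only). In limma the difference was -5.75 ± 0.90 (SE, adjusted p = 5.85e-10) with all 6 libraries and -5.40 ± 0.56 (adjusted p = 4.12e-07) without the nearly empty one. Tle2, on the same chromosome, had no site of its own, and the Tle5 site lay 13527 bases from the nearer end of Tle2.

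Satb1, a chromatin organizer of T cells, had 1 weak site at its outermost listed start, chr17:51833059-51833459. It had 26, 17 and 8 WT reads against 1, 1 and 0, at the 5.94 percentile of WT signal. The groups did not overlap, and the log2 fold in the authors' deposited table was -2.89 (FDR 0.00939). The ratio per depth, on 2 UTX-deficient reads, was 25.7 (exact 95% interval 6.77 to 218, counting error only).

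**Figure D3:**
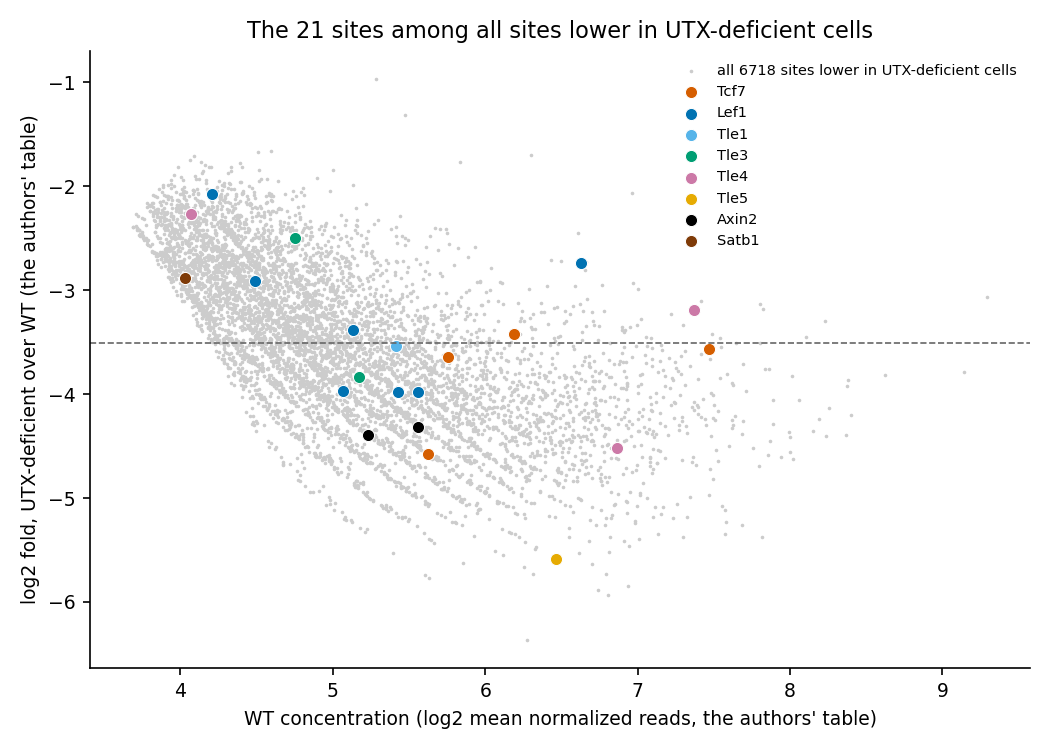
WT signal (horizontal, log2 mean normalized reads) and log2 fold (vertical, UTX-deficient over WT), both from the authors' deposited table, for the 6718 lower sites in grey and the 21 sites coloured by gene. The dashed line is the median of all lower sites, -3.51, and Tle5 sits near the lower edge.

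Counted together, the sites of these genes lay farther from starts than sites in general, but this was a trait of Tcf7, Lef1 and Tle4. All sites over 10 kb from a start were at these 3 genes, which hold 14 of the 21 sites. The sites of Tle1, Tle3, Axin2 and Satb1 lay from 11 to 9283 bases from a start. Of the 20 sites of genes with a listed start, 6 were within 1 kb of one (30%), against 3283 of 5381 such lower sites (61.0%), and 10 were over 10 kb away (50% against 26.1%). Likewise, 11 of 21 sites overlapped the body of their own gene, against 76.4% of 6647 placed sites. Counting by the distance to the nearer gene end, 8 of the 10 genes had a lower site within 10 kb (19.3% of all genes) and 4 had one within 1 kb (15.3%). At an FDR under 0.01, 8 had a site (19.5% of all genes). No test was made of these shares.

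Small amounts of signal remained in UTX-deficient cells. In the 2 deeper UTX-deficient libraries, the median over the 21 sites was 7.39% of the WT mean, beside 5.75% over all lower sites. The second library by depth kept more than the first, with medians of 10.3% and 3.54% at these sites and 8.56% and 2.71% over all. It was higher than the first at 18 of the 21 sites and at 84.0% of all lower sites. By site, the mean remaining share of both libraries ran from 1.35% at Tle5 to 15.4% at the last Lef1 site, which starts at 131190793. Spread between WT libraries was moderate, with a coefficient of variation between 3.98% and 35.8% and a median of 14.02%, beside 16.8% over all lower sites.

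**Figure D4:**
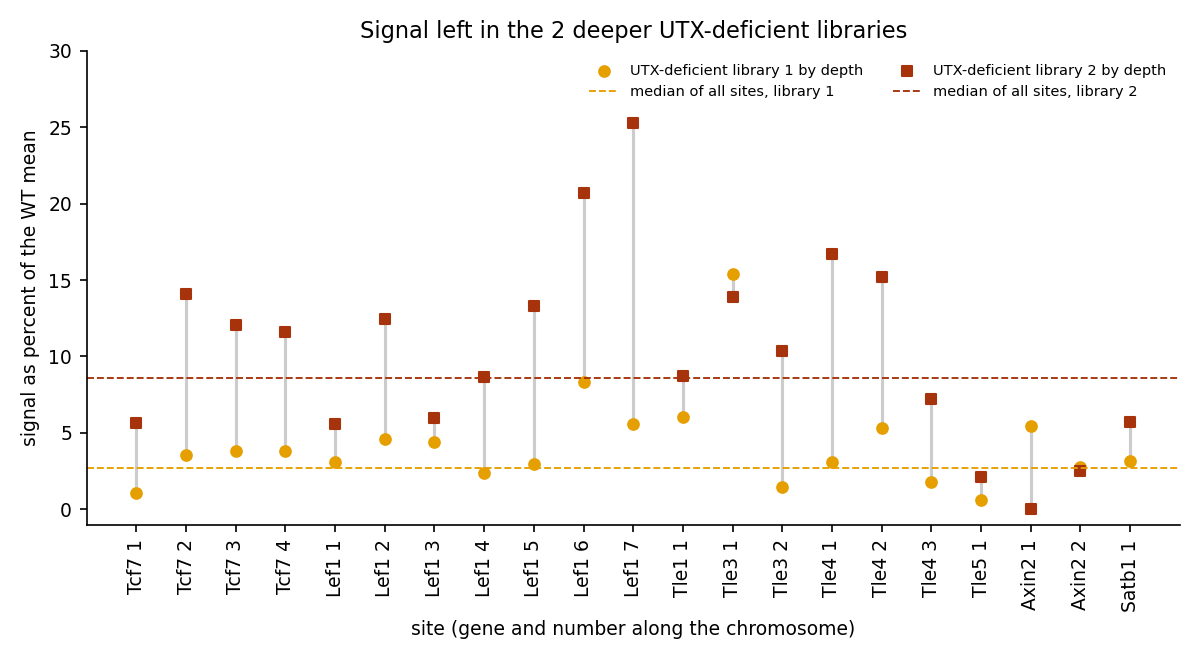
Signal left at each site in the 2 deeper UTX-deficient libraries as percent of the WT mean, with dashed lines at the medians of all lower sites. The second library by depth lies above the first at 18 of the 21 sites, and the highest points are at Lef1.

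The genes with a site most like the strongest Tcf7 site, by Euclidean distance over both group concentrations (log2), were Jund at 0.0109, Brat1 at 0.0938 and Dph5 at 0.119. Jund encodes an AP-1 transcription factor. Its site had 226, 189 and 120 WT reads against 20, 18 and 0, and the likeness rests on 2 group values.

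Other genes of the Wnt and Groucho pathways were counted from lists chosen with earlier results known, against the 22.1% of all protein-coding genes with a lower site. Wnt ligands had one at 2 of 19 genes (10.5%), Wnt11 and Wnt10a, for which the authors' deposited table gives log2 folds of -3.30 and -2.25. Wnt receptors and their regulators had one at 3 of 20 (15%). These were Znrf3 and Rnf43, ubiquitin ligases that remove Wnt receptors, and Fzd5, a Frizzled receptor, and the authors' deposited table gives them log2 folds of -4.70, -3.60 and -2.95. Genes of the destruction complex and its transducers had one at 9 of 16 (56.3%), including the kinase genes Csnk1a1 and Gsk3a and the scaffold gene Axin1 (log2 folds by the authors' deposited table -4.27, -3.79 and -4.01). The list of nuclear cofactors of TCF/LEF and Groucho had one at 14 of 21 genes (66.7%). Bcl9, Ep300 and Tcf7l2 were among them, with log2 folds by the authors' deposited table of -4.15, -4.98 and -3.54. Tcf7l2 was counted in this list although it is a TCF/LEF family gene and not a cofactor. Factors that recruit Groucho proteins had one at 4 of 19 (21.1%), among them Runx3, Runx2 and Runx1 (log2 folds by the authors' deposited table -4.86, -2.78 and -3.75). Of 12 further Wnt target genes, none was in the table, which lists differing sites alone. No gene of these lists had a site higher in UTX-deficient cells.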

How the data were processed

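The input was 1 deposited table comparing 3 WT with 3 UTX-deficient UTX CUT&Tag samples. The submitters' processing notes name cutadapt, FastQC, Bowtie2, Picard, SAMtools, DiffBind and MACS2, with build mm10. Their roles and versions, and any pooling for peak calling, were not given in the sources used here. As deposited, per the file headers, the values are log2 concentrations per group, a log2 fold (negative where WT is higher), a p-value and an FDR per site of 401 bp. The authors' FDR threshold of 0.05 gives the calls.

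The antilog of a group concentration times 3 is a sum of whole reads, each scaled by the worth of 1 read of its library, except where the concentration is at its floor of 0. There (2536 of the 6718 lower sites in UTX-deficient cells) the sum was taken from the deposited mean over all 6 samples less the WT sum. After the worths were found from the table, WT sums had exactly 1 solution at 6734 of 6739 sites, 3 had several and 2 none, and UTX-deficient sums had 1 at all 6739. Of WT sums shifted at random, 1.71% of 700 were solved. Tested on 5 simulated tables, at least 6711 sites were solved and 0 wrongly. The nearly empty library was inferred from the table, and each simulated table was given one, so its existence was not tested. The recovery gave it as many whole reads as each sum allowed. One read of the nearly empty library is worth 173.2 normalized reads. The fit used limma 3.58.1 in R 4.3.3 on log2(normalized reads + 1) over the 6734 listed sites with recovered reads. Benjamini-Hochberg adjustment was over those sites only, which the authors had already called between the same samples. Folds on this scale understate changes of low sites. On simulated data of 6734 sites, limma recovered 86 of 100 planted 4-fold drops and 100 of 100 planted 16-fold drops with 5 libraries, and 2 and 31 of 100 with 6. There were 6 and 12 false calls. Most simulated sites were left unchanged and the nearly empty library could draw reads at them, while in the data it had none at any lower site. The simulation with 6 libraries therefore does not measure how the fit with 6 libraries performed here. The labels do not say that samples came from separate mice, so p-values measure the spread between these samples, which may be technical. The reads carry no molecular identifiers and may repeat molecules, so intervals cover counting error only. An exact permutation test of 3 against 3 cannot go below p = 0.1 and was not used.

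Genes, starts and promoter windows are from RefSeq tables of GRCm38.p6. All 10 genes and their sites are named, with the 3 genes most like the strongest Tcf7 site and up to 3 genes of each list by smallest FDR. The genes and lists were chosen with earlier results of these data known. Alternatives were other FDR thresholds, a WT signal minimum, distance limits, gene assignments, pseudocounts and leaving out libraries.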

Additional observations from a re-analysis of the deposited data

How the results depend on the processing

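The 21 sites stayed lower in limma with all 6 libraries, without the nearly empty one, with pseudocounts of 0.5 and 4, and with each library left out in turn (21 to 21 sites). Only sites already called between these same samples are listed, so this outcome was nearly fixed in advance. Over all sites the count ran from 6710 to 6715 when libraries were left out. Stricter thresholds left 19 (FDR 0.01) and 18 (FDR 0.001) sites, at 8 and 7 genes. Keeping sites at or above the median WT signal left 16 of 21 and 3359 of 6718 sites. Sites within 1 kb of a gene end were at 4 of the 10 genes. These limits remove sites by construction. The median log2 fold of -3.56 was -4.29 from the group concentrations and -4.26 with limma on 6 libraries, and ran from -4.78 to -4.21 when a library other than the nearly empty one was left out; without that library it was -3.51. Where it was kept, the nearly empty library entered as 0 at all 21 sites. At the strongest Tcf7 site the UTX-deficient mean was 9.08 normalized reads with it and 13.6 without. The cause of the differing medians was not tested. Wnt ligands fell from 2 genes to 1 at FDR 0.01 and to 1 within 10 kb, and markers of other cell types from 2 to 1 within 10 kb. Assigning sites to the overlapping or nearest gene of any kind left 14 sites at 8 genes, of which 12 were among the 21. The strongest Tcf7 site was not among those 12. No paired analysis was possible because the table gives group means and the recovered libraries carry no replicate number. Depth limits the UTX-deficient values: at most 27 reads stood at any of the 21 sites in 1 such library.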

Other observations

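Assigning each site to its overlapping or nearest protein-coding gene, a choice made after the data were seen, gave 28 sites at 9 genes. It brought in 7 sites that carry another symbol in the authors' deposited table. Further listed sites lay within 200000 bases of some of these genes, such as 4 near Tcf7 and 8 near Tle5. Those stayed with other genes. Inside Lef1, 2 sites assigned to Hadh were listed. The first, chr3:131208537-131208937, had 84, 91 and 57 WT reads against 5, 7 and 0, a WT mean of 79.0 ± 17.9 normalized reads (SD, n = 3). Its log2 fold by the authors' deposited table was -4.04. The second, chr3:131199809-131200209, had 35, 22 and 18 WT reads against 2, 5 and 0. Near Ctnnb1, 3 sites assigned to 1700020M21Rik lay between 137189 and 162737 bases from the gene. The authors' deposited table gives them log2 folds of -4.48, -3.18 and -2.68. Near Satb1, a site assigned to Gm20098 lay 43416 bases away and one assigned to Gm19585 lay 329547 bases away.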
